A study of Rattus norvegicus with 24 samples.

Results

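The effect of past LPS in rats that later received heroin was examined as the comparison of LPS-Heroin with Saline-Heroin, by RNA-seq of the nucleus accumbens (NAc). These groups hold 8 of the 24 libraries of the series, 4 per group, and they were taken from the treatment labels and not from any measured value. All rats were adult male Sprague Dawley animals, 8 weeks old on arrival. LPS-Heroin rats received 5 intraperitoneal injections of 250 µg/kg LPS over about 2 weeks and then heroin once a day for 5 days, at doses that rose from 1 to 5 mg/kg. Saline-Heroin rats received saline in place of LPS and the same heroin, so that heroin is common to both groups. By the labels, heroin began 1 week after LPS ended and the rats were killed 1 hour after the last heroin dose, whereas the methods of the study give a shorter gap before heroin and add a session in a locomotor chamber before death. LPS-Saline and Saline-Saline, with 4 rats each, carried the same LPS contrast with saline in place of heroin and share no library with the first pair. The question behind the comparison was whether an immune challenge leaves a trace in the NAc that is visible when heroin is given afterwards.

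LPS is a wall component of Gram-negative bacteria that Toll-like receptor 4 detects on microglia and other cells, which respond with cytokines through NF-κB. The NAc is the ventral part of the striatum and consists mostly of medium spiny neurons, and opioids act there and on its dopamine input. Immediate early genes such as Fos and Arc are transcribed within minutes of synaptic activity, in part through CREB bound to cAMP response elements (CREs). The extracellular matrix of the brain includes basement membranes around vessels, fibrillar collagens made by fibroblasts of the meninges and vessel walls, perineuronal proteoglycans, and matricellular proteins such as CTGF that signal rather than bear load.

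Reads on genes ran from 12312878 to 18850240 in the 8 libraries. Values are in FPKM, the reads on a gene divided by its length and by a library size. Markers of medium spiny neurons were abundant in each library. Ppp1r1b, which encodes DARPP-32, lay between 531 and 892 FPKM in LPS-Heroin and between 631 and 870 FPKM in Saline-Heroin. The microglial marker Csf1r lay between 20.1 and 25.1 FPKM over both groups. Transcripts of neighbouring tissue differed between rats. In Saline-Heroin replicate 2 the cortical transporter gene Slc17a7 stood at 128 FPKM, against 278 to 356 FPKM in the other Saline-Heroin rats, and the septal transcription factor gene Zic1 stood at 30.9 FPKM, against 6.11 to 13.6. LPS-Heroin replicate 4 carried 24.1 FPKM of the choroid plexus gene Ttr, against at most 0.191 in the other LPS-Heroin rats. The mean log2(FPKM + 0.1) of 5 choroid plexus genes was 0.59, -0.08, -0.31 and 2.37 in LPS-Heroin. In Saline-Heroin it also differed between rats, at 0.25, 1.25, 1.38 and 0.18. LPS-Heroin replicate 1 had the highest Fos of the 8 rats. Some, but not all, of the results below that rest on Saline-Heroin replicate 2, LPS-Heroin replicate 4 or LPS-Heroin replicate 1 are given with and without them. In whole tissue, fewer cells of a type and less RNA per cell cannot be told apart.

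Past LPS was accompanied by 332 DEGs in heroin-injected rats, 181 higher and 151 lower in LPS-Heroin, out of 15121 genes tested. A DEG is here a gene with an unadjusted limma p of at most 0.05 and a change of at least 1.3-fold on log2(FPKM + 0.1), and only genes averaging 0.5 FPKM or more over the 8 libraries were tested. DEGs made up 2.20% of the genes tested, the higher ones 1.20% and the lower ones 0.999%. No gene passed a Benjamini-Hochberg adjusted limma p of 0.05, the smallest being 0.527, and limma-voom on recovered reads likewise gave 0. Without the fold limit, 637 genes (4.21%) had an unadjusted p of at most 0.05, where 756 would be expected with no difference anywhere. The DEGs below are thus a ranking by size and spread and not a list of established changes. Of the 332, 235 were protein coding, 65 had a mean of fewer than 10 reads and 174 had at least 50. In 109 of them, 57 higher and 52 lower, the lowest value of 1 group lay above the highest of the other, as it did in 359 (2.37%) of all genes tested. With LPS-Heroin replicate 1 and Saline-Heroin replicate 2 both left out, 326 genes were DEGs, of which 149 were among the 332.

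Ctgf had the smallest p of the named genes that were higher in LPS-Heroin. It encodes connective tissue growth factor, a secreted CCN protein that binds growth factors and integrins and is a textbook target of the co-activator YAP and of TGF-beta. Ctgf (rn6 chr1:21851660-21854773, minus strand) stood at 23.7, 24.3, 26.8 and 22.4 FPKM in the 4 LPS-Heroin rats and at 15.7, 11.4, 17.8 and 12.5 FPKM in the Saline-Heroin rats. Every LPS-Heroin rat lay above every Saline-Heroin rat, and the spread within LPS-Heroin was small. The means were 24.3 ± 1.84 and 14.4 ± 2.96 FPKM (SD, n = 4 each), a 1.71-fold difference (log2 0.77 ± 0.14 SE). The limma p was 0.000343 and the adjusted p 0.985, and a two-sided exact permutation test of the 8 rats gave p = 0.0286, the smallest that 4 against 4 allows. Over the 24 genes named for small p and separate groups, the limma p ran from 0.000343 to 0.0133, and the choice of separate groups by itself sets the exact permutation p at 0.0286. Leaving out any 1 library kept Ctgf a DEG, with log2 fold changes from 0.67 to 0.88, and it stood at 0.68 with LPS-Heroin replicate 1 and Saline-Heroin replicate 2 both left out.

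The promoter of Ctgf is shown because its TEAD sites are the letters through which YAP is known to act on this gene. The sequence is the 250 bases before the transcription start, from RefSeq (GRCr8 chr1:22624615-22624864, minus strand, listed there as Ccn2), written 5′ to 3′ along the gene, and capitals mark the TEAD core GGAATG.
Ctgf promoter: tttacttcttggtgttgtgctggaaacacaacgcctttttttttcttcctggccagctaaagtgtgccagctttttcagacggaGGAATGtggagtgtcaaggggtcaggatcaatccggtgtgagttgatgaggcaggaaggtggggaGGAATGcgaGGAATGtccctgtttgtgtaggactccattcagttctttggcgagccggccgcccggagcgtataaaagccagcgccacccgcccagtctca
The core occurred 3 times, all on the strand of the gene, beginning 166, 101 and 92 bases before the start. Of the 33469 promoters in the RefSeq table, 12.1% held the core at least once on either strand and 0.0807% held it 3 times or more. Of the other 27 members of the TGF-beta and YAP list tested, none was a DEG, 12 had positive and 15 negative fold changes, and the median was -0.01, against 0.00 over all genes tested. Cyr61, the CCN gene most often read as a YAP target beside Ctgf and also with the core in its promoter, stood at 2.46, 0.724, 1.72 and 1.50 FPKM in LPS-Heroin and 1.11, 2.99, 0.733 and 1.27 FPKM in Saline-Heroin. Those ranges overlap throughout, and the log2 fold change of Cyr61 was 0.13 ± 0.46 (SE; exact permutation p = 0.8).

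**Figure D1:**
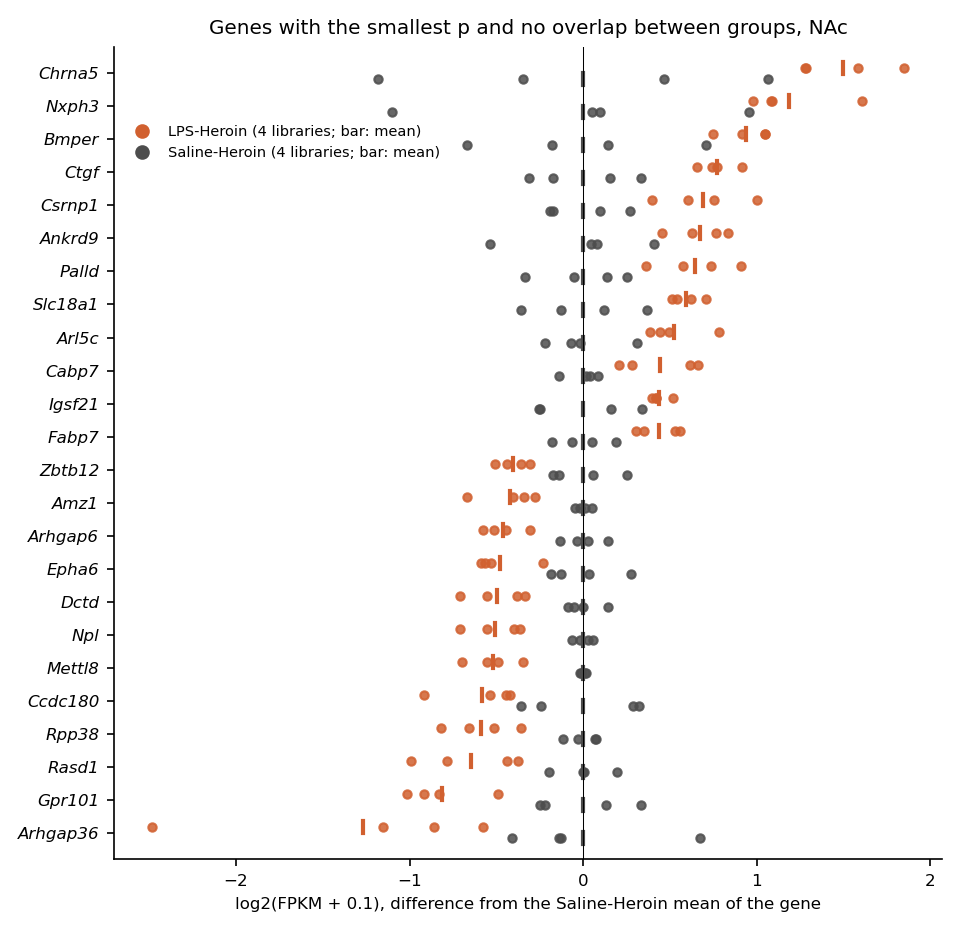
log2(FPKM + 0.1) of the 12 higher and 12 lower DEGs with the smallest p, at least 50 reads and groups that do not overlap, as the difference of each library from the Saline-Heroin mean of its gene. Orange points are LPS-Heroin, dark grey points Saline-Heroin, and short bars the means. The means differ most for Chrna5 (log2 1.50) and Arhgap36 (-1.27), and the Saline-Heroin points spread widely for Chrna5, Nxph3 and Bmper.

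The other 11 named genes higher in LPS-Heroin were of mixed function. Csrnp1, a nuclear protein of the immediate early response, is described with that group, and Nxph3 with layer 6b. Fabp7, the brain fatty acid carrier of astrocytes and neural progenitors, stood at 105, 90.6, 103 and 87.6 FPKM in LPS-Heroin and 73.6, 62.7, 81.2 and 67.9 FPKM in Saline-Heroin (log2 0.44 ± 0.09 SE). The gap between the groups was narrow but present in all rats. Without Saline-Heroin replicate 2 its fold change fell just under the 1.3-fold limit (log2 0.38). Chrna5 encodes the alpha5 subunit of nicotinic acetylcholine receptors. It stood at 5.74, 8.56, 5.71 and 7.10 FPKM in LPS-Heroin and 4.92, 0.957, 3.21 and 1.79 FPKM in Saline-Heroin (log2 1.50 ± 0.43 SE). The lowest of these rats was again Saline-Heroin replicate 2, and without it and LPS-Heroin replicate 1 the log2 fold change was 1.18. Bmper, which encodes a secreted regulator of bone morphogenetic proteins, ranged from 3.66 to 4.54 FPKM in LPS-Heroin and from 1.31 to 3.56 in Saline-Heroin (log2 0.94 ± 0.27 SE). Palld, which bundles actin filaments, ranged from 3.94 to 5.80 against 2.38 to 3.64 FPKM (log2 0.65 ± 0.17 SE). Slc18a1, a vesicular monoamine transporter, ranged from 2.61 to 3.0 against 1.38 to 2.35 FPKM (log2 0.60 ± 0.18 SE). All 3 are thus separated by gaps smaller than the range within a group. Igsf21, an adhesion protein that binds neurexin at inhibitory synapses, lay between 38.2 and 41.5 FPKM in LPS-Heroin and between 24.3 and 36.7 in Saline-Heroin (log2 0.44 ± 0.13 SE), and was no DEG without Saline-Heroin replicate 2 or without Saline-Heroin replicate 4 (range over single libraries left out 0.36 to 0.55). Ankrd9 (log2 0.67 ± 0.20 SE), the small GTPase gene Arl5c (0.53 ± 0.16) and the calcium sensor gene Cabp7 (0.44 ± 0.12) complete the set. Palld overlaps a U6 gene and Cabp7, no DEG without LPS-Heroin replicate 3, overlaps Zmat5 on the opposite strand, and the sources used here do not say if reads were assigned by strand, so that their values are uncertain.

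Among the named genes lower in LPS-Heroin, Arhgap6, which switches off small GTPases, had the smallest p. It stood at 17.7, 19.5, 16.1 and 16.8 FPKM in LPS-Heroin and 23.6, 21.9, 24.5 and 26.6 FPKM in Saline-Heroin (log2 -0.46 ± 0.08 SE), a small but even difference. Gpr101, an orphan G protein-coupled receptor gene expressed in the accumbens and hypothalamus, stood at 9.31, 11.8, 8.15 and 8.74 FPKM in LPS-Heroin and 14.2, 20.9, 18.2 and 14.0 FPKM in Saline-Heroin (log2 -0.81 ± 0.16 SE). Both kept their call without any 1 library, Gpr101 also at -0.70 with LPS-Heroin replicate 1 and Saline-Heroin replicate 2 left out. Npl, the lyase that breaks down sialic acid, stood at 4.42, 5.51, 5.65 and 4.93 FPKM in LPS-Heroin and 7.59, 7.20, 6.96 and 7.43 FPKM in Saline-Heroin (log2 -0.51 ± 0.10 SE). Rpp38, a protein subunit of RNase P, stood at 4.82, 5.35, 5.95 and 4.31 against 8.09, 7.08, 8.03 and 7.52 FPKM (log2 -0.59 ± 0.12 SE). In both genes the Saline-Heroin rats lay close together and above all LPS-Heroin rats. Rasd1, the dexamethasone-induced Ras protein, ranged from 6.73 to 10.4 FPKM in LPS-Heroin and from 11.7 to 15.4 in Saline-Heroin (log2 -0.65 ± 0.15 SE). Epha6, an ephrin receptor, ranged from 6.58 to 8.47 against 8.75 to 12.1 FPKM (log2 -0.48 ± 0.13 SE). Arhgap36, an inhibitor of protein kinase A, had the largest difference of these genes, with 1.23 to 4.90 against 5.53 to 11.8 FPKM (log2 -1.27 ± 0.40 SE), and the lowest LPS-Heroin and the highest Saline-Heroin value were both those of replicate 2. The metallopeptidase gene Amz1 (log2 -0.42 ± 0.10 SE), the deaminase gene Dctd (-0.50 ± 0.14), Ccdc180 (-0.58 ± 0.19), the zinc finger gene Zbtb12 (-0.40 ± 0.13) and Mettl8, a methyltransferase of mitochondrial tRNA (-0.52 ± 0.17), were the others. Amz1 was no DEG without LPS-Heroin replicate 1, nor Zbtb12 without LPS-Heroin replicate 2 or Saline-Heroin replicate 3. Amz1 overlaps Iqce, Arhgap6 overlaps an uc_338 element, and Mettl8 overlaps Tlk1 and Gorasp2.

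Immediate early genes were mostly somewhat higher in LPS-Heroin, but few were DEGs and the direction rested on 2 rats. Of 36 tested, 31 had positive and 5 negative fold changes, with a median of log2 0.27, against 0.00 over all genes tested. Csrnp1, Dusp1 and Btg2 were DEGs, all higher, which is 8.33% of the list beside 2.20% of all genes. No member of the Fos and Jun families was a DEG. Fos, a subunit of the AP-1 factor, stood at 40.3, 17.4, 13.3 and 16.8 FPKM in LPS-Heroin and 17.7, 10.5, 15.5 and 16.9 FPKM in Saline-Heroin (log2 0.42 ± 0.32 SE; exact permutation p = 0.429). LPS-Heroin replicate 1 alone stood clear of the other group, and Saline-Heroin replicate 2 was the lowest. The same rats were extreme for Arc, whose protein drives endocytosis of AMPA receptors, with 76.5, 25.4, 12.1 and 19.1 FPKM against 26.3, 7.48, 30.1 and 26.5 FPKM (log2 0.38 ± 0.60 SE; exact permutation p = 0.657). Junb, another AP-1 subunit, stood at 99.9, 50.4, 40.3 and 52.8 against 47.5, 29.9, 41.6 and 53.1 FPKM (log2 0.44 ± 0.28 SE; exact permutation p = 0.286). Egr1, Fosb, Npas4 and Nr4a1, all activity-induced transcription factor genes, were likewise highest in LPS-Heroin replicate 1 and lowest in Saline-Heroin replicate 2 within their groups, with log2 fold changes of 0.31, 0.33, 0.56 and 0.41 and exact permutation p from 0.314 to 0.543. The median of the list was 0.08 without LPS-Heroin replicate 1 and 0.13 without Saline-Heroin replicate 2. With both left out it was -0.02, with 16 genes positive and 20 negative, and Arc stood at -0.61, a DEG in the opposite direction. The number of immediate early DEGs ran from 1 without LPS-Heroin replicate 1 to 6 without LPS-Heroin replicate 3.

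**Figure D2:**
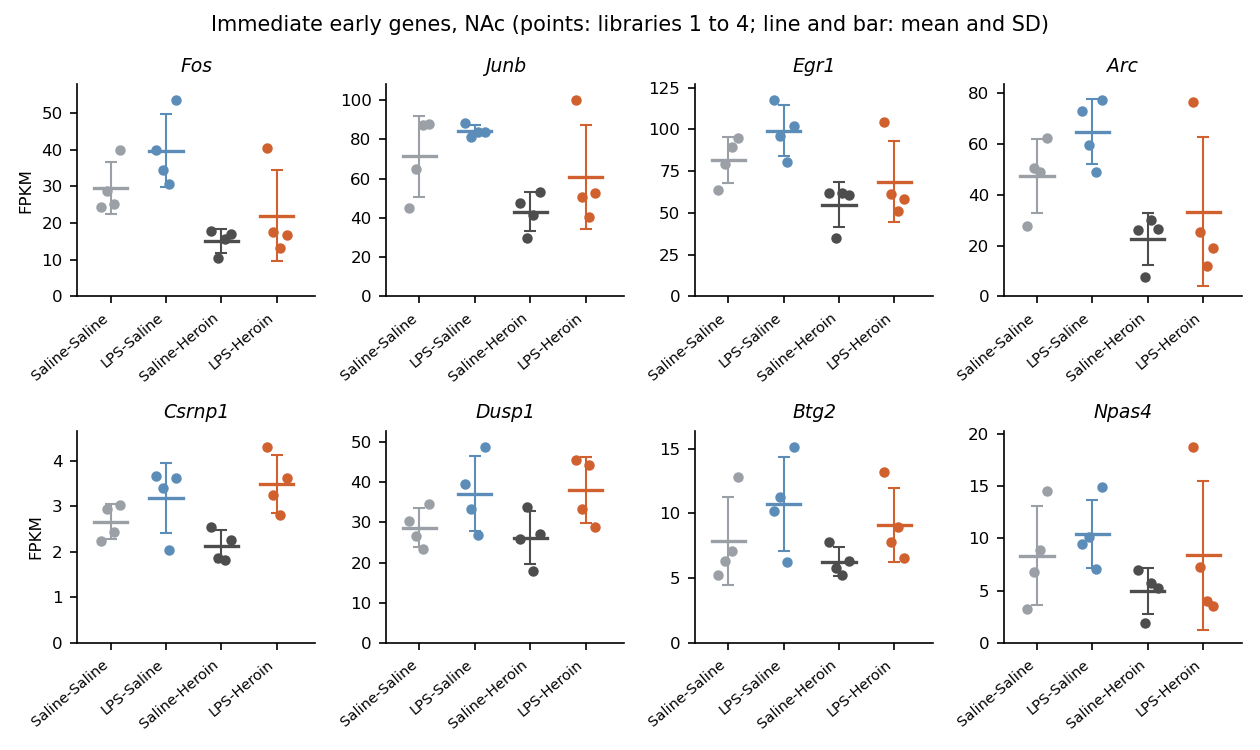
FPKM of 8 immediate early genes in the 4 groups of the injection experiment. Points are libraries 1 to 4 from left to right, the line the mean and the bar the SD (n = 4), on axes that start at 0. LPS-Heroin replicate 1 is the highest LPS-Heroin point for each of the genes shown, at 40.3 FPKM for Fos and 76.5 FPKM for Arc.

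Csrnp1 was the immediate early gene whose groups did not overlap. It stood at 4.30, 3.24, 2.80 and 3.61 FPKM in LPS-Heroin and 2.55, 1.85, 1.82 and 2.25 FPKM in Saline-Heroin (log2 0.69 ± 0.18 SE, adjusted p = 1), and it was a DEG with any 1 library left out and with LPS-Heroin replicate 1 and Saline-Heroin replicate 2 both left out (log2 0.53). Dusp1, the phosphatase that switches off MAP kinases, stood at 45.5, 33.4, 44.3 and 29.0 FPKM in LPS-Heroin and 25.8, 33.8, 17.9 and 27.2 FPKM in Saline-Heroin (log2 0.55 ± 0.21 SE; limma p = 0.0269; exact permutation p = 0.0857). Saline-Heroin replicate 2 was here the highest of its group, unlike for Fos, and the call was lost without LPS-Heroin replicate 1, LPS-Heroin replicate 3 or Saline-Heroin replicate 3. Btg2, an antiproliferative cofactor of mRNA deadenylation, stood at 13.2, 7.80, 8.98 and 6.57 FPKM in LPS-Heroin and 7.78, 5.76, 5.21 and 6.30 FPKM in Saline-Heroin (log2 0.50 ± 0.21 SE; limma p = 0.0407; exact permutation p = 0.0571). It lost its call without any 1 of 5 libraries, over a range of 0.31 to 0.64.

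Promoters of Dusp1 and Btg2 are shown because both contain a full CRE, the site of CREB in activity-induced genes. They are the 250 bases before the start from RefSeq (GRCr8 chr10:17184603-17184852, plus strand, and chr13:48087691-48087940, minus strand), 5′ to 3′ along the gene, with the CRE, TGACGTCA, in capitals.
Dusp1 promoter: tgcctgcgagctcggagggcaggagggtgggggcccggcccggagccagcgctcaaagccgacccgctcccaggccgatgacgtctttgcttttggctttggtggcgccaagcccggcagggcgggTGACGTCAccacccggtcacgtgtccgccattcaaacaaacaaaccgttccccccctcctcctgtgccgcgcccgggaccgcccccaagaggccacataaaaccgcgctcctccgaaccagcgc
Btg2 promoter: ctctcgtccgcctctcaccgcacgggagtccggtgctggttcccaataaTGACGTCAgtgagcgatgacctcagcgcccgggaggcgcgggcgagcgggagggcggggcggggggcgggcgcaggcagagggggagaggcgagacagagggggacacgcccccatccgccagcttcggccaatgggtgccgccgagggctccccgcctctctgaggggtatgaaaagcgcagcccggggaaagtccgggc
The CRE began 124 bases before the start of Dusp1 and 201 bases before that of Btg2. Of all promoters listed, 1.59% held it. Among the 54 genes named by rule, 43 had a promoter in the table. Fos, Arc and Csrnp1 were among those without one, so that their promoters were not examined. The CRE was found in Dusp1, Btg2 and Il6, or 6.98% of the 43. The AP-1 motif TGANTCA was found in Plaur (2.33% of the 43, 6.34% of all promoters) and the TEAD core in Ctgf, Cyr61, Nr4a1 and Tlr4 (9.30% of the 43). These are letters in a window of 250 bases and no measure of binding.

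Matrix genes showed no common direction. Of 166 tested over 7 lists, 4 were higher and 3 lower, together 4.22% beside 2.20% of all genes, 71 fold changes were positive and 95 negative, and the median was -0.04. Laminins and basement membrane genes (14 tested), fibronectin and elastic fibre genes (17) and integrins (17) held no DEG. The higher ones were Ctgf, Nov, Plaur and P4ha3. Nov, a CCN protein like Ctgf, stood at 107, 114, 67.9 and 136 FPKM in LPS-Heroin and 104, 22.8, 53.6 and 37.2 FPKM in Saline-Heroin (log2 1.14 ± 0.42 SE; exact permutation p = 0.0571). The groups overlapped through Saline-Heroin replicate 1, and Nov lost its call without LPS-Heroin replicate 4, Saline-Heroin replicate 2 or Saline-Heroin replicate 4 (0.80 to 1.53 over single libraries left out). Plaur, the urokinase receptor, stood at 3.07, 4.72, 4.85 and 1.42 FPKM in LPS-Heroin and 2.75, 0.488, 1.42 and 1.11 FPKM in Saline-Heroin (log2 1.31 ± 0.52 SE; exact permutation p = 0.0571). P4ha3, a collagen prolyl hydroxylase subunit, stood at 3.79, 4.42, 4.19 and 2.33 against 3.43, 0.980, 1.99 and 1.62 FPKM (log2 0.94 ± 0.35 SE; exact permutation p = 0.0571). For Nov, Plaur and P4ha3 alike, Saline-Heroin replicate 1 was the highest and replicate 2 the lowest of the Saline-Heroin rats, the order also seen for the mean of the cortical list below. Plaur and P4ha3 each lost the call without any 1 of 5 libraries, among them LPS-Heroin replicate 1 and Saline-Heroin replicate 2.

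Lower matrix DEGs were Col1a1, Bgn and Gpc3. Col1a1, the alpha1 chain of fibrillar type I collagen, stood at 2.80, 1.80, 1.52 and 7.90 FPKM in LPS-Heroin and 3.85, 7.28, 7.77 and 9.30 FPKM in Saline-Heroin (log2 -1.23 ± 0.49 SE; limma p = 0.0326; exact permutation p = 0.114). Bgn, the small proteoglycan biglycan, stood at 7.86, 5.61, 5.79 and 13.4 against 9.61, 15.9, 18.0 and 19.0 FPKM (log2 -0.97 ± 0.30 SE; limma p = 0.0106; exact permutation p = 0.0571). For both genes LPS-Heroin replicate 4 lay within the Saline-Heroin range while the other 3 LPS-Heroin rats lay below it. Gpc3, a glypican, stood at 2.46, 0.921, 2.04 and 5.57 against 4.95, 7.51, 5.90 and 3.40 FPKM (log2 -1.17 ± 0.47 SE; exact permutation p = 0.0857), and overlaps other annotated genes on the opposite strand. Col1a1 lost its call without any library but LPS-Heroin replicate 4 or Saline-Heroin replicate 1, and Gpc3 without any but LPS-Heroin replicate 4 or Saline-Heroin replicate 4, whereas Bgn kept it throughout (-1.24 to -0.83). Other matrix genes fixed for description were not DEGs: log2 fold changes were 0.27 ± 0.50 (SE) for Tnc, -0.11 ± 0.28 for Fn1 and 0.03 ± 0.13 for Col4a1, the basement membrane collagen. The number of matrix DEGs ran from 2 without Saline-Heroin replicate 2 to 16 without LPS-Heroin replicate 4, and it was 2 with LPS-Heroin replicate 1 and Saline-Heroin replicate 2 both left out, so that the count for this family depends on single rats. It was 4 with all 16 libraries in one fit.

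Layer 6b genes held the largest share of DEGs of any list examined. This thin sheet of neurons at the base of the cortex lies against the white matter over the accumbens and is marked by Ctgf, Cplx3 and Nxph4. Of 8 genes tested, Ctgf, Cplx3, Nxph3 and Nxph4 were DEGs, all higher in LPS-Heroin, beside 1.20% of all genes, and the median of the list was log2 0.34. The lists were chosen with earlier results of these data known, and this one holds Ctgf and Nxph3, named above for small p. Its rank among the lists may therefore rest in part on that choice. Cplx3, a complexin of the synaptic release machinery, stood at 10.9, 14.3, 15.1 and 9.89 FPKM in LPS-Heroin and 6.54, 2.14, 8.01 and 8.39 FPKM in Saline-Heroin (log2 1.14 ± 0.40 SE; limma p = 0.0179; exact permutation p = 0.0286). Nxph3, a secreted neurexophilin that binds alpha-neurexins, stood at 52.3, 80.9, 56.4 and 56.6 against 51.6, 12.3, 28.3 and 27.5 FPKM (log2 1.19 ± 0.37 SE). Nxph4, of the same family, stood at 15.8, 17.7, 15.0 and 13.7 against 11.3, 7.44, 14.0 and 10.5 FPKM (log2 0.55 ± 0.18 SE; exact permutation p = 0.0571). In Nxph4 the groups overlapped by 1 rat, and in Cplx3 and Nxph3 they did not overlap. Without Saline-Heroin replicate 2 the log2 fold change fell to 0.70 for Cplx3 and to 0.82 for Nxph3. Moxd1, Tle4, Lpar1 and Cobll1, the other members, had log2 fold changes from -0.01 to 0.14. The list held 4 DEGs whichever library was left out, and 3 with LPS-Heroin replicate 1 and Saline-Heroin replicate 2 both left out (median 0.26), when Nxph4 stood just under the fold limit (log2 0.38). With all 16 libraries of the 4 groups in one fit 3 were DEGs, Cplx3 being lost.

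Genes of other cortical glutamatergic neurons differed less evenly, and those named were chosen after their values were seen. Of 11 tested, 7 fold changes were positive and 4 negative, with a median of 0.33, which was 0.10 without Saline-Heroin replicate 2. Slc17a7 stood at 374, 329, 280 and 349 FPKM in LPS-Heroin and 356, 128, 296 and 278 FPKM in Saline-Heroin (log2 0.42; exact permutation p = 0.286), and Neurod6, a cortical transcription factor gene, at log2 0.58 (exact permutation p = 0.4). Tbr1, a transcription factor of deep cortical layers, stood at 27.2, 26.1, 24.7 and 25.6 FPKM in LPS-Heroin and 22.2, 9.64, 22.6 and 21.0 FPKM in Saline-Heroin. The groups did not overlap, Saline-Heroin replicate 2 was by far the lowest, and Tbr1 was not a DEG (log2 0.53; exact permutation p = 0.0286). The mean of log2(FPKM + 0.1) over the cortical list was 3.79 to 3.90 in LPS-Heroin, and 4.0, 2.97, 3.47 and 3.53 in Saline-Heroin. Over the layer 6b list it was 3.78 to 4.13 in LPS-Heroin and 3.02 to 3.60 in Saline-Heroin, without overlap. In rats without heroin the layer 6b mean spread more widely, from 3.31 to 4.08 in LPS-Saline and from 3.21 to 4.09 in Saline-Saline. Septal genes went the other way: 14 of 15 fold changes were negative with a median of -0.34, which was -0.08 without Saline-Heroin replicate 2. Dlk1 (log2 -0.91; exact permutation p = 0.0571), a Notch ligand relative, and Calcr, the calcitonin receptor (-1.28; exact permutation p = 0.0571), were lower DEGs. They made up 13.3% of the list, beside 0.999% of all genes. Calcr lost its call without LPS-Heroin replicate 4 or without any 1 Saline-Heroin library, and its fold change was -0.68 without LPS-Heroin replicate 2. How far the cortical and septal share of each dissection contributed to the values of Ctgf, Nov, Chrna5 and the layer 6b genes was not tested.

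**Figure D3:**
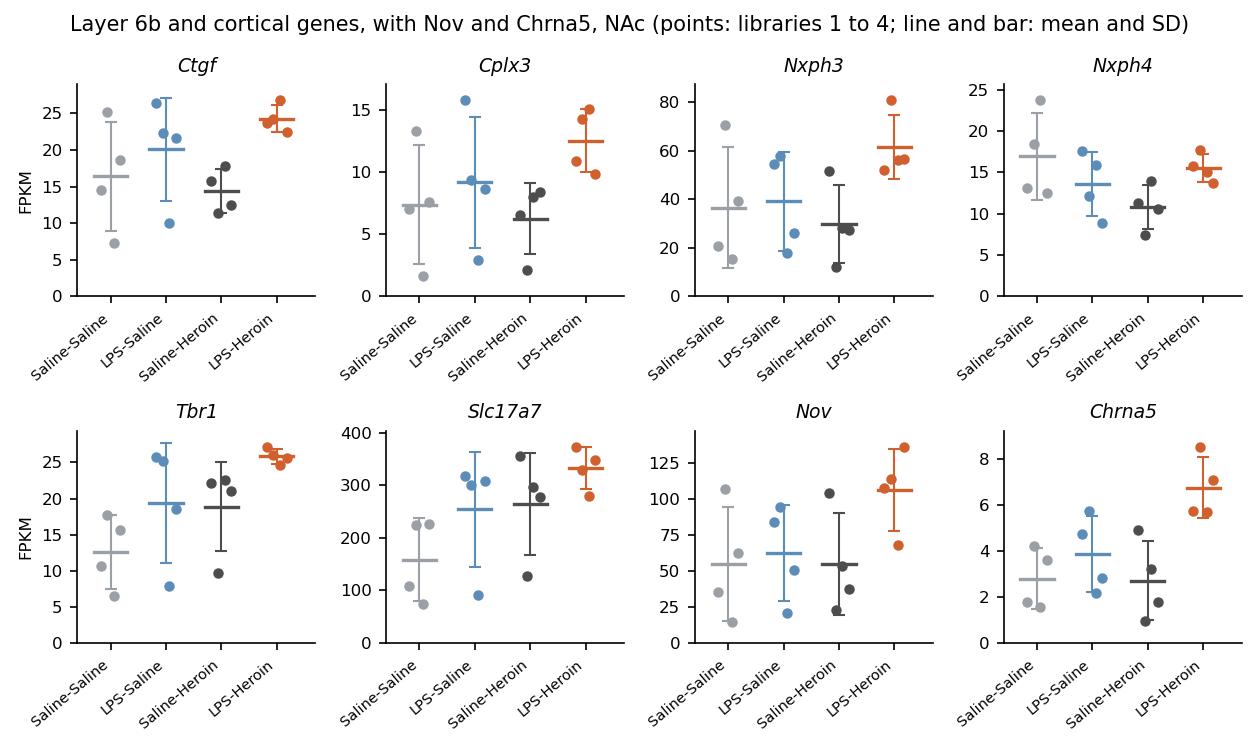
FPKM of 4 layer 6b genes (Ctgf, Cplx3, Nxph3, Nxph4), the cortical genes Tbr1 and Slc17a7, and Nov and Chrna5 in the 4 groups of the injection experiment. Points are libraries 1 to 4, the line the mean and the bar the SD (n = 4). LPS-Heroin points lie close together for Ctgf (22.4 to 26.8 FPKM), while those of the groups without heroin spread from 7.34 to 26.4 FPKM.

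Among smooth muscle and fibroblast genes most fold changes were negative, but the groups overlapped. Of 20 genes tested, 17 had negative fold changes, the median was log2 -0.72 against 0.00 over all genes, and 5 were lower DEGs (25.0% beside 0.999%). The mean of log2(FPKM + 0.1) over the list ran from 1.04 to 2.34 in LPS-Heroin and from 1.87 to 2.66 in Saline-Heroin. Acta2, the actin of vascular smooth muscle, stood at 3.37, 5.12, 1.58 and 8.95 FPKM in LPS-Heroin and 16.5, 32.1, 6.89 and 9.44 FPKM in Saline-Heroin (log2 -1.75 ± 0.58 SE; limma p = 0.0144; exact permutation p = 0.0571). Tagln, an actin-binding protein of the same cells, stood at 9.02, 10.6, 5.55 and 22.3 against 28.0, 60.1, 16.2 and 18.7 FPKM (log2 -1.35 ± 0.49 SE; exact permutation p = 0.0857). Saline-Heroin replicate 2 was the highest for both, and LPS-Heroin replicate 4 was the highest of its group and overlapped Saline-Heroin. Myh11, the smooth muscle myosin, had a log2 fold change of -0.84 ± 0.34 (SE), and Des, the filament protein desmin, of -1.06 ± 0.44. Col1a1 was the fifth. Rgs5, a marker of pericytes, was a DEG in the opposite direction, at 30.4, 33.9, 22.4 and 31.8 FPKM in LPS-Heroin and 25.6, 23.2, 17.5 and 23.1 FPKM in Saline-Heroin (log2 0.40 ± 0.15 SE; exact permutation p = 0.114). Pdgfrb, which pericytes and smooth muscle share, lay between 3.71 and 4.57 FPKM over both groups (log2 -0.04; exact permutation p = 0.6), and none of the 15 endothelial genes tested was a DEG. The number of DEGs on the list ran from 2 without LPS-Heroin replicate 1 to 11 without LPS-Heroin replicate 4, was 3 with all 16 libraries in one fit, and was 0 with LPS-Heroin replicate 1 and Saline-Heroin replicate 2 both left out, when 17 of 20 fold changes were still negative and the median was -0.47. Acta2 itself was a DEG without any 1 library, and Tagln was none without LPS-Heroin replicate 3 or Saline-Heroin replicate 2 (-0.96). Tagln overlaps Sidt2. The fibroblast genes Col1a2 (log2 -1.05), Col3a1 (-0.92), Dcn (-0.68) and Lum (-0.37) shared the direction of Col1a1 without being DEGs. Whether the amount of meninges or large vessel in a dissection contributed to the lower Col1a1 and Bgn was not tested.

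**Figure D4:**
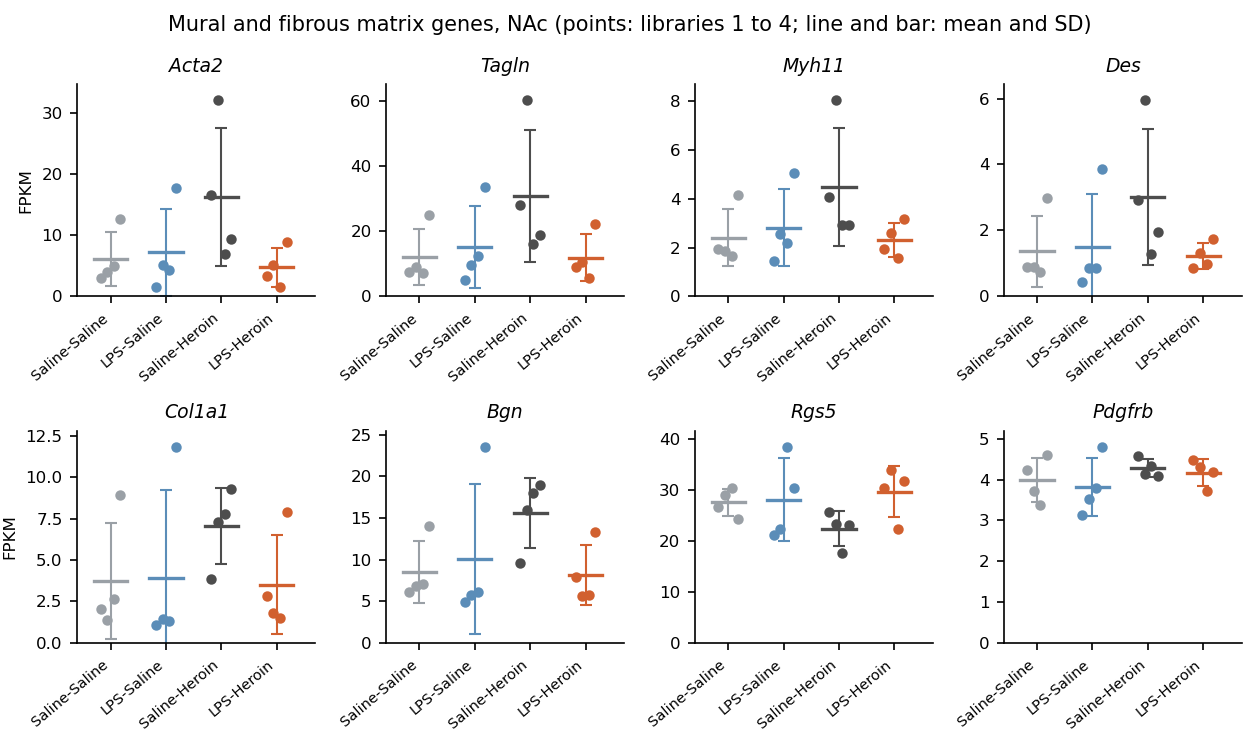
FPKM of smooth muscle genes (Acta2, Tagln, Myh11, Des), fibrous matrix genes (Col1a1, Bgn) and the pericyte genes Rgs5 and Pdgfrb in the 4 groups of the injection experiment. Points are libraries 1 to 4, the line the mean and the bar the SD (n = 4). Acta2 ranges from 1.58 to 8.95 FPKM in LPS-Heroin and from 6.89 to 32.1 FPKM in Saline-Heroin, while Pdgfrb stays between 3.71 and 4.57 FPKM in both.

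The few inflammatory genes that were DEGs did not share a direction. Cytokine transcripts were at or near 0 in all 8 rats: Tnf was listed at 0 in each, Il1b reached 0.0584 FPKM and Il6 0.300 FPKM, and none of the 3 entered the test. Tlr4, the receptor of LPS, lay between 0.170 and 0.562 FPKM and was likewise under the filter. Of 27 genes of the inflammatory and Toll-like receptor list tested, 3 were DEGs (11.1%, beside 2.20% of all genes) and the median was -0.02. Myd88, the adaptor of most Toll-like receptors, was lower, at 2.21, 2.88, 2.11 and 2.48 FPKM against 3.09, 2.72, 3.28 and 4.25 FPKM (log2 -0.44 ± 0.17 SE; exact permutation p = 0.0571). Socs1, which restrains cytokine signalling, was lower at 0.943, 0.562, 0.562 and 0.559 against 0.938, 1.16, 1.16 and 1.36 FPKM (log2 -0.75 ± 0.27 SE; exact permutation p = 0.0571), on a mean of 15.5 reads. Relb, a subunit of the alternative NF-κB pathway, was higher at 2.54, 2.45, 2.18 and 1.73 against 1.38, 1.83, 1.73 and 1.34 FPKM (log2 0.48 ± 0.19 SE; exact permutation p = 0.0857). Each of these 3 overlapped between groups by at least 1 rat. Nfkb1, Rela and Nfkbia had log2 fold changes of 0.08, -0.05 and 0.09. Cd74, the invariant chain of MHC class II, was the lower DEG among 31 interferon and antigen presentation genes (log2 -1.18 ± 0.47 SE; exact permutation p = 0.143), with 2.40 to 7.35 FPKM in LPS-Heroin and 5.36 to 18.8 in Saline-Heroin. None of 20 microglial genes and none of 14 complement genes was a DEG. Aif1, which encodes the microglial protein IBA1, stood at 7.81, 8.04, 9.43 and 9.18 FPKM against 6.48, 8.27, 8.67 and 9.56 FPKM (log2 0.07 ± 0.13 SE), and Gfap, the astrocyte filament, at 142 to 172 against 117 to 164 FPKM (log2 0.14 ± 0.11 SE). Opalin, a myelin protein, was a higher DEG among 18 oligodendrocyte genes (log2 0.45 ± 0.19 SE; exact permutation p = 0.0571), of which 15 had positive fold changes. It lost its call without any 1 of 6 libraries. The median of the list was 0.13, and -0.02 without Saline-Heroin replicate 1. Without heroin 0 of the 18 were positive, with a median of -0.23. Cd74 and Opalin made up 3.23% and 5.56% of their lists, beside 2.20% of all genes.

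Opioid, dopamine and medium spiny neuron genes gave no DEG. Oprm1, the receptor on which heroin acts, ranged from 0.515 to 0.896 FPKM in LPS-Heroin and from 0.650 to 0.908 in Saline-Heroin (log2 -0.10 ± 0.29 SE; exact permutation p = 0.6). The opioid peptide genes Penk and Pdyn had log2 fold changes of -0.24 ± 0.13 (SE; exact permutation p = 0.171) and -0.08 ± 0.12 (exact permutation p = 0.6). Drd1 and Drd2, the dopamine receptors of the direct and indirect pathway neurons, stood at -0.03 ± 0.13 and -0.19 ± 0.17. Of the 20 medium spiny neuron genes tested, 1 had a positive fold change and 19 negative, with a median of -0.05. The change furthest from 0 was that of Isl1, a transcription factor gene of striatal neurons (log2 -0.52 ± 0.32 SE), which was past the fold limit but not a DEG. The direction of this list rested on 1 rat, as its median was 0.06 without LPS-Heroin replicate 1. In the rats without heroin, 15 of the 20 fold changes for past LPS were positive. Lists without a DEG also included those of monoamines (19 tested), GABA receptors (16), the circadian clock (18) and the glucocorticoid response (20). Among 23 glutamate receptor genes, Grm2 (log2 0.40 ± 0.15 SE; exact permutation p = 0.0286), a presynaptic inhibitory receptor, and the kainate receptor gene Grik3 (0.40 ± 0.17; exact permutation p = 0.0857) were higher, and Grin3b (-0.83 ± 0.35; exact permutation p = 0.0286), on a mean of 25.4 reads, was lower. Hspb1 and Bag3, a small heat shock protein and its co-chaperone, were lower DEGs among 22 chaperones (log2 -0.64 and -0.66; exact permutation p = 0.0571 and 0.0857). Of the neuropeptides, Nmb was higher (log2 1.05 ± 0.35 SE; exact permutation p = 0.0571) and Trh lower (-0.48 ± 0.21; exact permutation p = 0.114). For the 23 glutamate receptor, 22 chaperone and 19 neuropeptide genes tested, these 3, 2 and 2 DEGs stand beside 2.20% of all genes. Over all 36 lists, 33 of 591 genes tested were DEGs, or 5.58%, also beside 2.20% of all genes. The lists were chosen with earlier results of these data known, which may raise their share of DEGs. Besides Ctgf, Nxph3 and Csrnp1, 30 list genes were DEGs, and 6 of these (Bgn, Acta2, Cplx3, Nxph4, Dlk1 and Nmb) remained DEGs without any 1 of the 8 libraries, while the other 24 lost the call for at least 1. Of the 24 genes named for small p and separate groups, 19 kept the call, a number that the choice of these genes favours. Over these 24 and the 30 together, 29 lost the call with LPS-Heroin replicate 1 and Saline-Heroin replicate 2 both left out.

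Past LPS without heroin gave 357 DEGs of 15119 genes tested (2.36%; LPS-Saline against Saline-Saline). Of the 315 DEGs of the heroin-injected rats that were tested in both, 15 were DEGs in both comparisons, 4.76% of one list and 4.45% of the other, and 10 of the 15 had the same sign. Trh was lower in both (log2 -0.48 and -0.51), whereas Chchd10 was lower after heroin (-2.27) and higher without it (1.46). Fold changes of the comparisons, which share no library, were weakly related across 14819 genes (Pearson r = 0.0814, Spearman's rank correlation 0.113), as a description over genes that are not independent replicates. Immediate early genes had a median of log2 0.31 without heroin, with 32 of 36 positive, beside 0.27 with it. Septal genes had a median of -0.48 without heroin, beside -0.34 with it. Of the 15, 3 were positive and 2 were lower DEGs without heroin, where 174 of all 15119 genes were lower DEGs. The layer 6b list had no DEG without heroin and a median of 0.13, but for Ctgf the interaction term was 0.44 ± 0.46 (log2, SE; adjusted p = 0.992), so that the LPS effects with and without heroin were not shown to differ. Smooth muscle and fibroblast genes had a median of -0.03 without heroin, and the interaction of Acta2 was -1.71 ± 0.97 (SE), which did not pass the limits of a DEG.

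The interaction of past LPS with heroin passed the DEG limits in 349 of 15113 genes (2.31%), none at an adjusted limma p of 0.05, with 607 genes (4.02%) at an unadjusted p of at most 0.05. The interaction contains the libraries by which the DEGs were chosen, so that its values are given here side by side with those of each comparison. Epha6, Npl, Fabp7, Rpp38 and Ankrd9 had the smallest interaction p of the 24 named genes. Epha6 stood at 9.59, 7.67, 8.58 and 8.38 FPKM in LPS-Saline and 6.65, 5.88, 7.70 and 8.07 FPKM in Saline-Saline, so that its difference was positive without heroin (log2 0.28 ± 0.12 SE) and negative with it, and the interaction was -0.76 ± 0.18 (SE). Npl likewise stood at 7.95, 6.92, 7.78 and 6.96 FPKM in LPS-Saline and 5.68, 5.17, 7.91 and 3.88 FPKM in Saline-Saline (log2 0.42 ± 0.19 SE), with an interaction of -0.93 ± 0.22 (SE). For Epha6 and Npl the LPS-Heroin rats were near the Saline-Saline rats, and LPS-Saline and Saline-Heroin rats were mostly higher. Fabp7 ran the other way, at 61.3, 81.6, 64.7 and 70.2 FPKM in LPS-Saline against 91.1, 102, 61.2 and 81.8 FPKM in Saline-Saline (log2 -0.26 ± 0.15 SE; interaction 0.69 ± 0.19). Rpp38 had an interaction of -0.77 ± 0.25 and Ankrd9 of 0.66 ± 0.25. The adjusted limma p of each of these 5 genes was 0.992.

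Some large fold changes came with jumps between single rats, and the genes given here were chosen after their values were seen. LOC100911238 had the smallest p of all genes, at 16.5, 16.8, 37.1 and 19.5 FPKM in LPS-Heroin and 102, 64.2, 106 and 142 FPKM in Saline-Heroin (log2 -2.23 ± 0.30 SE; exact permutation p = 0.0286, adjusted p = 0.527). It was at 120 FPKM in 1 LPS-Saline rat and at 89.0 FPKM in 1 Saline-Saline rat, and between 15.4 and 30.6 FPKM in the other 6 rats without heroin, so that it took a high or a low level within groups of the same treatment. Chchd10, a mitochondrial protein of the cristae, stood at 17.0, 17.1, 19.0 and 15.5 FPKM in LPS-Heroin and 125, 17.8, 107 and 200 FPKM in Saline-Heroin (log2 -2.27 ± 0.63 SE). In LPS-Saline it was at 16.6, 89.1, 26.1 and 98.2 FPKM, again with a low and a high level. Genes of this kind may share reads with near-identical copies, and their values are uncertain.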

How the data were processed

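RNA was extracted from NAc tissue of single rats and sequenced as 1 library per rat. The deposited data hold 4 libraries per group, fewer than the methods of the study say were sequenced. According to the submitters' processing notes, reads were trimmed with fastp, aligned to rn6 with HISAT2 and assigned to genes with featureCounts, with versions not given in the sources used here. The authors deposited FPKM values for 32545 genes, that is, reads divided by gene length and a library size. That size was 0.996 to 1.03 times the reads on genes in the 8 libraries. It lay below the reads on genes in some of them, so that it was not a plain total. The sources used here do not say how it was set. How far it corrects for the makeup of a library or a few dominant genes was not tested. Whole reads were recovered from the FPKM steps and lay within 0.001 of a whole number, which gave 12312878 to 18850240 reads on genes per library. No reads were realigned here, and no deposited column went unused.

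FPKM was analysed as log2(FPKM + 0.1) for genes with a mean of 0.5 FPKM or more, with limma 3.58.1 (trended empirical Bayes) in R 4.3.3. Fold changes on this scale understate the change of low genes. LPS-Heroin was compared with Saline-Heroin, LPS-Saline with Saline-Saline, and their difference was fitted as an interaction over 16 libraries. DEGs had an unadjusted p of at most 0.05 and a change of at least 1.3-fold. Adjusted p-values are Benjamini-Hochberg values over all genes tested, and exact permutation tests of mean log2 values were two-sided. Python 3.11.15 was used for tables and plots. Fits were tested on simulated data.

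Genes named in full were the 12 higher and 12 lower DEGs of smallest p with separate groups, at least 50 reads and a mean of at least 1 FPKM, every DEG of the immediate early, matrix and TGF-beta and YAP lists, and 24 chosen genes. The members and all gene lists were chosen with earlier results of these data known. Other list DEGs were named as well, apart from 1 that is not reported here. Of 754 list entries, 727 were found in the files. Promoters came from RefSeq (GRCr8), matched by symbol or synonym. Alternatives concerned the pseudocount, the filter, scaling, thresholds, limma-voom, a replicate block and single libraries left out. Leaving out LPS-Heroin replicate 1 together with Saline-Heroin replicate 2, and a filter on 10 recovered reads for genes and lists, were chosen after seeing the data. Replicates of a group differed beyond counting noise (chi-square per degree of freedom 10.0 to 19.9). No batch or date is given in the labels, so none could be fitted. The methods of the study give more rats treated and more samples sequenced per group than the 4 analysed here.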

Additional observations from a re-analysis of the deposited data

Results flagged for a closer look

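Single libraries stood apart from the other 3 of their group in 13 of 180 groups of 4 values examined. The value given is the gap of that library to its nearest neighbour as a share of the range of the group. Chance gives about 1 in 20 for independent groups. The genes and lists examined share members and come from the same rats, so that the count cannot be set against that rate. In Saline-Heroin, replicate 2 was lowest for Egr1 (0.961), Arc (0.902), the Fos and Jun list (0.831) and the layer 6b list (0.854). It was highest for the septal list (0.927) and for the neuropeptides (0.852). The layer 6b list of this rat had a mean log2(FPKM + 0.1) of 3.02 against 3.51 to 3.60 in the other Saline-Heroin rats, and its septal list 3.42 against 2.40 to 2.47. Saline-Heroin replicate 3 was highest for heat shock and chaperone genes (0.832), at 5.48 against 4.92 to 5.01.

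In LPS-Heroin, replicate 4 was highest for complement genes (0.908), for the glucocorticoid response (0.922) and for interferon and antigen presentation genes (0.854), and lowest for oligodendrocyte genes (0.873). Its complement list stood at 2.59 against 1.90 to 1.96, and this rat also carried the choroid plexus transcript Ttr. Replicate 3 was lowest for microglial genes (0.858), and replicate 2 was highest for Epha6 (0.837). The contribution of the dissected tissue to these values was not tested.

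The past LPS effect differed between rats with and without heroin, by the limits of a DEG on the interaction, for 9 of 50 named genes examined, all of them among the 24 named for small p and separate groups. Over all genes 349 of 15113 (2.31%) passed these limits, and the choice of the genes on the heroin arm raises their count. Interactions were positive for Fabp7 (log2 0.692), Palld (0.627), Ankrd9 (0.661) and Arl5c (0.6). They were negative for Rpp38 (-0.774), Npl (-0.929), Amz1 (-0.471), Epha6 (-0.757) and Mettl8 (-0.59). The adjusted limma p was 0.992 for each, and the values are descriptions.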

How the results depend on the processing

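The 332 DEGs of LPS-Heroin against Saline-Heroin became 524 with no filter on mean FPKM, 637 with no limit on the fold change, 70 at an unadjusted p of at most 0.01 and 0 at an adjusted p of at most 0.05. The 357 DEGs without heroin became 581, 1002, 111 and 0 under the same alternatives, and the 349 interaction genes became 565 without the filter. More genes are tested without the filter, and the thresholds act on the count by construction. The other settings gave 279 to 332 DEGs in heroin-injected rats: 285 with a pseudocount of 1, 330 with 0.01, 279 at a mean FPKM of at least 1, 332 with quantile normalization, 330 with equal medians, 327 with robust moderation, 312 with all 16 libraries in one fit, 301 at 10 or more reads and 329 with limma-voom, which shared 248. Leaving out 1 library gave 301 (without Saline-Heroin replicate 2) to 445 (without LPS-Heroin replicate 4). Without heroin the range was 310 (without Saline-Saline replicate 1) to 624 (without LPS-Saline replicate 3), and for the interaction 289 to 446. In heroin-injected rats at most 2 genes passed an adjusted limma p of 0.05 with a library left out, and 1 did without the filter. Arc reversed to -0.61, as a DEG, with LPS-Heroin replicate 1 and Saline-Heroin replicate 2 both left out, and the cause was not tested. Over the named genes and alternatives, 1259 values counted as unchanged, 174 lost the call, 1 gained it and 1 reversed as a DEG. Unchanged means a DEG that stayed one in the same direction, or another gene that moved by less than its SD within groups. Some of the latter changed sign, such as Arc (log2 -0.14 without LPS-Heroin replicate 1). Scaling moved the median of all genes from 0.0018 to between -0.015 (limma-voom) and 0.0038 (log2). Equal replicate numbers were not taken to pair the rats: the correlations of deviations between same-numbered rats ran from -0.13 to 0.04 for LPS-Heroin and Saline-Heroin and from -0.01 to 0.12 for LPS-Saline and Saline-Saline, where replicates 2 to 4 correlated best with their own number and replicate 1 did not. A fit with the replicate number as a block gave 308 DEGs, 240 of them shared, 480 without heroin and 346 for the interaction, and under the block 11 named genes lost the call, among them Dusp1, Gpc3, Calcr, Myd88, Relb, Socs1, Cd74, Opalin, Grin3b and Trh. With all 16 libraries in one fit 14 did (Igsf21, Rasd1, Dctd, Btg2, Nov, Col1a1, P4ha3, Cd74, Myh11, Des, Cplx3, Hspb1, Grik3 and Grm2), and with a pseudocount of 1 8 did, among them Dctd, Zbtb12 and Mettl8. Depth limits genes of few reads, and 65 of the 332 averaged under 10 reads.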

Other observations

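Beyond the gene lists, some DEGs were chosen for description after their values were seen. Further genes of smooth muscle were lower in LPS-Heroin. Myl9, a myosin light chain, stood at 10.2, 12.5, 7.52 and 20.9 FPKM in LPS-Heroin and 19.1, 30.9, 17.4 and 15.5 FPKM in Saline-Heroin (log2 -0.74 ± 0.31 SE). Tpm2, a tropomyosin, stood at 6.06, 8.06, 5.96 and 10.7 against 10.7, 17.8, 9.49 and 10.1 FPKM (log2 -0.63 ± 0.24 SE), and Lmod1, a leiomodin, at 3.21, 1.74, 2.32 and 3.87 against 4.12, 4.81, 4.16 and 3.39 FPKM (log2 -0.60 ± 0.24 SE). LPS-Heroin replicate 4 was the highest of its group for all 3, as it was for Acta2 and Tagln, and Saline-Heroin replicate 2 was the highest of the other. Pcolce, which promotes the processing of fibrillar procollagens, was lower (log2 -0.99 ± 0.35 SE), as was Mgp, the matrix Gla protein (-0.45 ± 0.19). Igfbp6, an insulin-like growth factor binding protein of fibroblasts, was higher, at 9.89, 10.0, 10.4 and 7.07 FPKM against 7.56, 4.74, 6.24 and 1.68 FPKM (log2 1.05 ± 0.40 SE). S100a6, a calcium-binding protein, stood at 4.11, 2.48, 3.31 and 4.44 against 5.71, 9.01, 5.88 and 18.8 FPKM, without overlap between the groups (log2 -1.29 ± 0.37 SE).

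Beside Chrna5, the alpha4 nicotinic subunit gene Chrna4 was a higher DEG, with 8.83 to 12 FPKM in LPS-Heroin and 9.66, 6.18, 7.82 and 5.25 FPKM in Saline-Heroin (log2 0.57 ± 0.19 SE), with overlap of the groups. Hes1, a transcription factor gene downstream of Notch, stood at 13.5, 11.9, 8.70 and 9.28 FPKM in LPS-Heroin and 9.02, 4.94, 5.58 and 6.72 FPKM in Saline-Heroin (log2 0.73 ± 0.21 SE), whereas Heyl, also downstream of Notch, was lower (-0.44 ± 0.19). The growth factor genes Bmp4 (log2 0.64 ± 0.24 SE) and Bmp3 (0.86 ± 0.37) were higher beside Bmper. Saline-Heroin replicate 2 was the lowest of its group for Hes1 and Bmp4 and was not the lowest for Chrna4.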
